A study of Homo sapiens with 20 samples.

Results

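Hypoxia-inducible factor (HIF) target genes outside glycolysis were followed in LNCaP cells, an androgen-sensitive human prostate cancer line, in which EHMT1 was silenced or induced. The members are a list of 40 genes taken by symbol, and all 40 were found among the 57773 genes of both count tables. They comprise 6 genes of the HIF subunits and the oxygen-sensing loop, 4 genes of secreted factors, 2 carbonic anhydrases, 5 collagen-modifying enzymes, 3 JmjC dioxygenases, 5 mitochondrial genes, 3 genes of lipid and glycogen storage, 3 transcription factors or coregulators and 9 other targets. The members and the lists set beside them were chosen with earlier results of these data known. Shares of members given beside those of all genes are therefore descriptions.

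EHMT1 (GLP) is a lysine methyltransferase that acts with EHMT2 (G9a) on histone H3 lysine 9, and K450 and K451 are neighbouring lysines of EHMT1 itself. RNA-seq counts were available for 20 samples. Parental LNCaP cells were transfected with a pool of siRNAs against EHMT1 (siEHMT1, 2 samples) or with a non-target control pool (siNTC, 2 samples) at 20 nM for 2 days. In 4 stable LNCaP lines, a lentiviral tetracycline-inducible construct carried V5-tagged EHMT1 as wild type (WT) or with lysine changed to arginine (K450R, K451R or K450RK451R), and each line received 0.25 µg/ml doxycycline (Dox) for 2 days or no doxycycline (Veh). All lines had been infected, selected with puromycin and kept in tetracycline-free serum, and each genotype is represented by 1 line that still carries its own EHMT1. Every condition of a line was deposited as 2 numbered columns, 16 in all, which differed by no more than counting noise (chi-square per degree of freedom 0.995 to 1.02). They were therefore summed and counted as 1 sample per condition, and a line on its own gives no test of Dox against Veh. In the siRNA samples the same measure was 61.6 for siNTC and 13.4 for siEHMT1. No label states that these siRNA samples came from separate cultures, so their p-values measure the spread between these samples only.

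The total count was 5593400 to 12438006 per siRNA sample and 8436791 to 12407739 per summed stable-line condition. Levels are given as CPM, the count scaled by TMM to a common library size. The siRNA samples and the stable-line conditions were scaled separately, also for the levels in this paragraph. The siNTC samples and the Veh lines were scaled together only where their levels are compared gene by gene below. EHMT1 was at 87.8 and 83.6 CPM in siNTC and at 29.2 and 30.7 CPM in siEHMT1, a log2 fold change of -1.51 (edgeR quasi-likelihood adjusted p = 1.51e-07). In the stable lines the Veh and Dox levels of EHMT1 were 76.3 and 797 CPM (WT), 84.2 and 842 CPM (K450R), 71.7 and 725 CPM (K451R) and 88.9 and 663 CPM (K450RK451R). These counts cannot separate the transgene from the endogenous gene, and since no line without an EHMT1 construct was analysed here, doxycycline and EHMT1 cannot be told apart. The luminal markers looked up, among them KLK3 and KLK2, were present in every library, at 2917 to 8322 CPM for KLK3 and 539 to 1302 CPM for KLK2. Of the markers of immune, stromal, endothelial, basal and neuroendocrine cells, PTPRC, COL1A2, KRT5, TP63 and CHGA had no count, and CD14 had at most 1. The neuroendocrine marker SYP was at 0.20 to 2.00 CPM, with at most 25 counts. COL1A1 at 15.3 to 40.8 CPM and VWF at 3.35 to 16.0 CPM were the highest of the 9 markers of other cells, whose summed level was 24.5 to 28.0 CPM in siNTC, 33.1 to 35.1 in siEHMT1, 38.3 to 47.4 in the Veh lines and 36.1 to 42.1 in the Dox lines. The part of these markers in the results was not tested.

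HIF is a dimer of an oxygen-labile alpha subunit, HIF1A or EPAS1 (HIF-2 alpha), and the stable subunit ARNT. In oxygen, prolyl hydroxylases of the EGLN family mark the alpha subunit for the VHL ubiquitin ligase, and without oxygen the dimer binds the core sequence ACGTG or GCGTG near its target genes. The alpha subunits are controlled mainly at the protein level, so RNA of the targets is the usual sign of HIF activity, and several targets (EGLN1, EGLN3, CITED2) feed back on the pathway. H3K9 demethylases of the KDM3 and KDM4 families are themselves HIF targets and need oxygen.

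The bases before the transcription start are shown for 4 members that the results turn on or that mark the ends of their range. ANKRD37 and BHLHE40 differed in their Dox effect between the WT and the mutant lines, WSB1 was lower with Dox over the 4 lines fitted as replicates, and CA9 had one of the largest ratios of the Veh lines over siNTC. Each is the 250 bases upstream of the RefSeq start on GRCh38.p14, written 5′ to 3′ along the gene, and capitals mark ACGTG or its reverse complement CACGT, so that the overlapping pair CACGTG counts as 2 matches. All 4 genes lie on the plus strand, ANKRD37 at chr4:185396591-185396840, BHLHE40 at chr3:4979187-4979436, WSB1 at chr17:27293864-27294113 and CA9 at chr9:35673678-35673927.
ANKRD37: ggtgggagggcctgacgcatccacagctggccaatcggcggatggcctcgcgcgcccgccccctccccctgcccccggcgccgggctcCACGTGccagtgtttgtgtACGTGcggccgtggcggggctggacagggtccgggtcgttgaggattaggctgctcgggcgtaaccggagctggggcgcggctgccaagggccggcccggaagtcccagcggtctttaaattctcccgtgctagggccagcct
BHLHE40: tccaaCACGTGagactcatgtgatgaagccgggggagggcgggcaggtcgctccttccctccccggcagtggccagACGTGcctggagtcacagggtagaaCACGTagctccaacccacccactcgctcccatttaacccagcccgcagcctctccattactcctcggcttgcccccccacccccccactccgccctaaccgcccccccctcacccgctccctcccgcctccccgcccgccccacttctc
WSB1: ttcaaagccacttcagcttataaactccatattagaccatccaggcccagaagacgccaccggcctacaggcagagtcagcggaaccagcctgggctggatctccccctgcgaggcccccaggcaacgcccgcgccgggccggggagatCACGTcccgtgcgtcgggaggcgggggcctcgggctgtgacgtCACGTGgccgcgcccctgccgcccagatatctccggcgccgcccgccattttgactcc
CA9: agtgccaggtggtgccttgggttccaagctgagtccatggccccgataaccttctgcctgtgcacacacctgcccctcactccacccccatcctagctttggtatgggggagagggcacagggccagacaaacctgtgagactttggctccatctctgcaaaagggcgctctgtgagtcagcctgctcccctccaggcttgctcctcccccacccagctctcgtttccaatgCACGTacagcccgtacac
The BHLHE40 window held 4 matches, the ANKRD37 and WSB1 windows 3 each and the CA9 window 1, which begins 18 bases before the start. Of the 40 members, 29 had a promoter in the RefSeq table, and VHL, VEGFA, LOXL2, JMJD6, BNIP3L, NDUFA4L2, HILPDA, NDRG1, ANKZF1, FUT11 and RAB20 had none. ACGTG was present on either strand in 16 of the 29 (55.2%), against 24.2% of 9113 promoters of genes tested in the stable lines and 18.7% of all 27305 promoters of the same length. GCGTG was present in 15 of the 29 (51.7%), against 46.8% and 31.9%. Among the members lower with Dox over the mutant lines, described below, ACGTG was present in 5 of 8, and among the other tested members in 9 of 18. A match of letters is not a binding site, and no match says only that the letters were not in this window.

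The control samples showed that these genes were far higher in the stable lines than in the parental cells before any Dox was given. Of 36 members above the filter on low counts, 31 were higher in all 4 Veh lines than in both siNTC samples with a mean at least 2-fold higher, against 12.4% of the 14681 genes compared. None was lower by that rule, against 12.2% of all genes. The median log2 ratio of the members was 2.34 and that of all genes 0.0092. The stable lines differ from the siNTC samples in infection, selection, serum, transfection, culture and sequencing at once, these cannot be told apart, and no test was made. Cells of 1 line grown in 2 experiments were compared, so fewer responding cells and less RNA per cell cannot be told apart either.

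ANKRD37, an ankyrin repeat protein and a known HIF-1 target, had the largest ratio of the members above the filter, at 5.04 and 5.12 CPM in siNTC and 426, 322, 369 and 240 CPM in the Veh samples of WT, K450R, K451R and K450RK451R, and ranked 6 of the 14681 genes. HILPDA, which coats lipid droplets and blocks their lipolysis, was at 24.2 and 25.6 CPM in siNTC and at 1027, 733, 649 and 445 CPM in the Veh lines. BHLHE40, a basic helix-loop-helix repressor (DEC1), was at 32.3 and 32.0 CPM against 941, 831, 637 and 678 CPM. In all 3 genes the lowest stable line lay more than 10-fold above the highest siNTC sample.

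CA9, the membrane carbonic anhydrase used as a hypoxia marker, had counts of 5 and 1 in the siNTC samples and 92 to 181 in the Veh lines, or 0.44 and 0.18 CPM against 11.2 to 15.3 CPM. CA12, a second membrane carbonic anhydrase, was at 66.0 and 60.8 CPM in siNTC and at 81.5 to 94.4 CPM in the Veh lines, a mean ratio of 1.36. VEGFA, the endothelial growth factor, was at 97.6 and 109 CPM in siNTC and at 1194 to 1761 CPM in the Veh lines. The groups did not overlap for any of these genes, but the ratio of CA12 stayed under 2.

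All 4 collagen-modifying enzymes above the filter were higher in the Veh lines, P4HA1 11.2-fold, PLOD2 12.1-fold, PLOD1 5.38-fold and P4HA2 4.19-fold. These prolyl and lysyl hydroxylases were all past the 2-fold rule, while LOXL2, a lysyl oxidase that cross-links collagen, had counts of 7 and 0 in siNTC and 1 count over the 4 Veh lines. Of the mitochondrial genes, NDUFA4L2, which lowers complex I activity, was 13.6-fold higher, and the mitophagy receptors BNIP3 and BNIP3L were 6.62-fold and 6.55-fold higher. FAM162A, a mitochondrial protein that promotes cell death, was 4.73-fold higher, and the adenylate kinase AK4 was only 1.24-fold higher, at 117 and 143 CPM against 149 to 174 CPM. The demethylases KDM3A (6.61-fold) and KDM4B (3.18-fold) and the arginine demethylase and lysyl hydroxylase JMJD6 (2.17-fold) were also higher.

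The genes at the top of the pathway had smaller ratios than most targets. HIF1A was at 144 and 151 CPM in siNTC and at 65.6, 78.1, 74.8 and 77.1 CPM in the Veh lines, a ratio of 0.50, and VHL was at 59.4 and 52.0 CPM against 43.7 to 49.6 CPM. EPAS1 was low in both, at 2.47 and 2.56 CPM against 6.79 to 8.62 CPM. The feedback hydroxylases EGLN1 (3.77-fold) and EGLN3 (2.98-fold) were higher, and CITED2, which competes with HIF for its coactivators, was 1.59-fold higher. Among 12 tested genes of the HIF machinery that are no members, such as ARNT and CREBBP, none passed the 2-fold rule, with a median log2 ratio of 0.205. By contrast 19 of 20 glycolytic genes and 14 of 17 other hypoxia-induced genes were higher by the rule, with median log2 ratios of 2.14 and 2.11. In the second of these lists 1 gene was lower by the rule. This was TFRC, at 415 and 421 CPM in siNTC and at 136 to 164 CPM in the Veh lines. The higher levels were not confined to hypoxia genes: 6 of 10 ATF4 targets were higher by the rule (median log2 ratio 1.42), among them DDIT3 at 19.4-fold. VLDLR (3.43-fold), also among the 6, stands in both lists and is counted with the other hypoxia-induced genes too. By the same rule 4 of 9 luminal markers were higher. With each experiment scaled on its own, the summed level of these markers was 5983 to 6163 CPM in siNTC and 11594 to 12371 CPM in the Veh lines.

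The rest of the list above the filter was higher as well. TMEM45A, a transmembrane protein, was 17.9-fold higher, the stress-response gene NDRG1 12.5-fold, the disulfide oxidase ERO1L (ERO1A) 11.9-fold, the fucosyltransferase FUT11 9.22-fold and the nuclear receptor RORA 7.14-fold higher. INSIG2, which retains the sterol sensor in the endoplasmic reticulum, was 6.79-fold higher, at 5.83 and 13.0 CPM against 51.0 to 70.4 CPM, and its siNTC samples lay further apart from each other than those of HILPDA. KLHL24 (4.79-fold), PNRC1 (3.09-fold), MIF (2.99-fold), ANKZF1 (2.59-fold), WSB1 (2.38-fold) and RAB20 (2.03-fold) completed the 31. ADM, which encodes adrenomedullin, had 5 counts over both siNTC samples and 38 over the Veh lines, 24 of them in WT. ANGPTL4, an inhibitor of lipoprotein lipase, had 1 and 44, and PPP1R3C, a glycogen-targeting phosphatase subunit, had no count in either group.

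**Figure D1:**
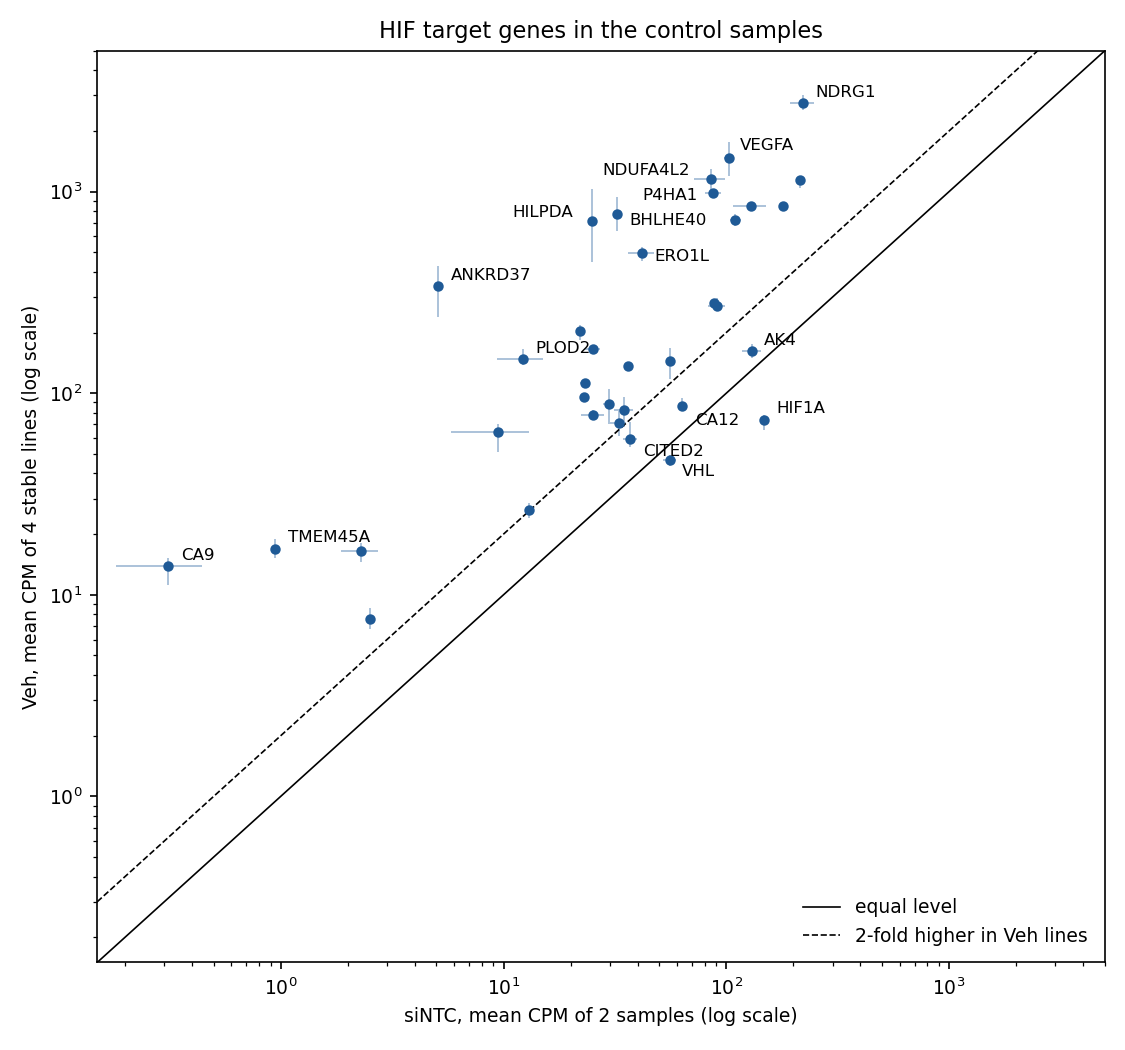
Mean level of the 36 members above the filter in 2 siNTC samples (x axis, CPM) and in the Veh samples of 4 stable lines (y axis, CPM), both axes logarithmic, with bars from the lowest to the highest sample. The solid line marks equal levels and the dashed line a 2-fold higher level in the Veh lines, genes past 10-fold or under 2-fold are named, and HIF1A and VHL lie below the solid line.

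Per length of annotated exons, the most abundant members in the Veh lines were NDUFA4L2 at a mean of 412 RPKM, the CPM divided by the exon length in kilobases, MIF at 372, HILPDA at 345, P4HA1 at 317 and NDRG1 at 229. The least abundant above the filter were RORA at 0.96 RPKM and EPAS1 at 1.04 RPKM. In siNTC the order was another one, led by MIF at 124 RPKM, PLOD1 at 40.1 RPKM and BNIP3L at 31.1 RPKM, with HILPDA at 12.0 RPKM and ANKRD37 at 2.26 RPKM. Exon lengths come from GENCODE on GRCh37, which need not be the annotation the reads were counted on, and 25 of the 40 members overlap another annotated gene. HILPDA lies at chr7:128095903-128098472 and overlaps HILPDA-AS1, BHLHE40 at chr3:5021122-5027008 overlaps an antisense gene, and ANKRD37 at chr4:186317175-186321782 overlaps UFSP2 on the other strand. JMJD6 at chr17:74708914-74722881 overlaps none. Whether the counting used strand is not given in the sources used here, so reads shared with such genes are uncertain.

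The 4 Veh lines were close to one another for most members. The highest line was more than 1.5-fold above the lowest for 2 of the 36 members, against 29.0% of all 14105 genes tested. These were HILPDA (2.31-fold) and ANKRD37 (1.78-fold), for which WT was the highest line and K450RK451R the lowest. EGLN3 (1.49-fold), BHLHE40 (1.48-fold) and VEGFA (1.47-fold) were just under the limit, also with WT as the highest line. The share of all genes includes low-count genes, whose ratios are noisier, and no share at matched depth was computed. The lines are 1 sample each, so the order of lines has no test.

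With Dox, a part of the list was lower in the lines that carry mutant EHMT1. Over the K450R, K451R and K450RK451R lines, fitted together as 3 replicates of the Dox effect, 13 of 36 tested members were lower with Dox at an adjusted p under 0.05 (edgeR quasi-likelihood, Benjamini-Hochberg over all genes), that is 36.1%, against 2.33% of the 14105 genes tested. None was higher, against 1.3% of all genes. The 3 lines are different genotypes, so these p-values measure the spread of the Dox effect between them and give no test for any single mutant. The median log2 change was -0.138 over the members and 0.0039 over all genes. In the library-size scaling, which sets the median of all genes 0.130 and 0.139 higher on the log2 scale in K451R and K450RK451R, 7 members were lower and CITED2 was higher. Over all genes that scaling gave 146 lower and 664 higher calls, where TMM gave 328 lower and 183 higher.

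HILPDA changed most. Without Dox the K450R, K451R and K450RK451R lines were at 732, 649 and 445 CPM, and with Dox at 352, 242 and 188 CPM, while WT was at 1026 CPM with Veh and 966 CPM with Dox. All 3 mutant lines were below their own Veh sample by more than 2-fold, and each Dox sample of a mutant line was below every Veh sample. The log2 change over the mutant lines was -1.24 (SE 0.059, edgeR adjusted p = 7.62e-18), rank 2 of all genes by p.

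ANKRD37 went with Dox from 322 to 223 CPM in the K450R line, from 369 to 187 in K451R and from 239 to 129 in the double mutant K450RK451R, and was at 425 CPM with both Veh and Dox in WT. The change over the mutant lines was -0.80 on the log2 scale (SE 0.066, edgeR adjusted p = 5.98e-11). BHLHE40 went from 830 to 574, from 637 to 420 and from 678 to 406 CPM in the same order of lines, and from 940 to 1019 CPM in WT. Its change was -0.62 (SE 0.053, edgeR adjusted p = 1.14e-10), and its 3 mutant Dox samples were the lowest of the 8 samples.

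JMJD6 was at 81.4, 67.2 and 61.2 CPM in the Veh samples of these mutant lines and at 56.2, 39.5 and 38.2 CPM in their Dox samples, and WT went from 74.7 to 83.8 CPM. Its change over the mutant lines was -0.66 (SE 0.083, edgeR adjusted p = 9.52e-07). The H3K9 demethylase KDM3A went from 171 to 148, from 158 to 120 and from 174 to 117 CPM, and from 162 to 150 CPM in WT. Its log2 change over the mutant lines was -0.39 (SE 0.068, edgeR adjusted p = 0.00027). The third JmjC gene, KDM4B, had a log2 change of -0.09 (edgeR adjusted p = 0.437), so the calls in this group were 2 of 3.

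VEGFA went from 1558 to 1104, from 1331 to 903 and from 1193 to 912 CPM in the mutant lines, and from 1760 to 1456 CPM in WT. Its change over the mutant lines was -0.48 (SE 0.049, edgeR adjusted p = 1.25e-08), and all 4 lines were lower with Dox. FUT11 went from 219 to 155, from 183 to 130 and from 196 to 111 CPM, and from 215 to 208 CPM in WT. Its change was -0.60 (SE 0.067, edgeR adjusted p = 7.92e-08). HILPDA, ANKRD37, BHLHE40, JMJD6, KDM3A, VEGFA and FUT11 were called in all 10 alternative analyses of this comparison.

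**Figure D2:**
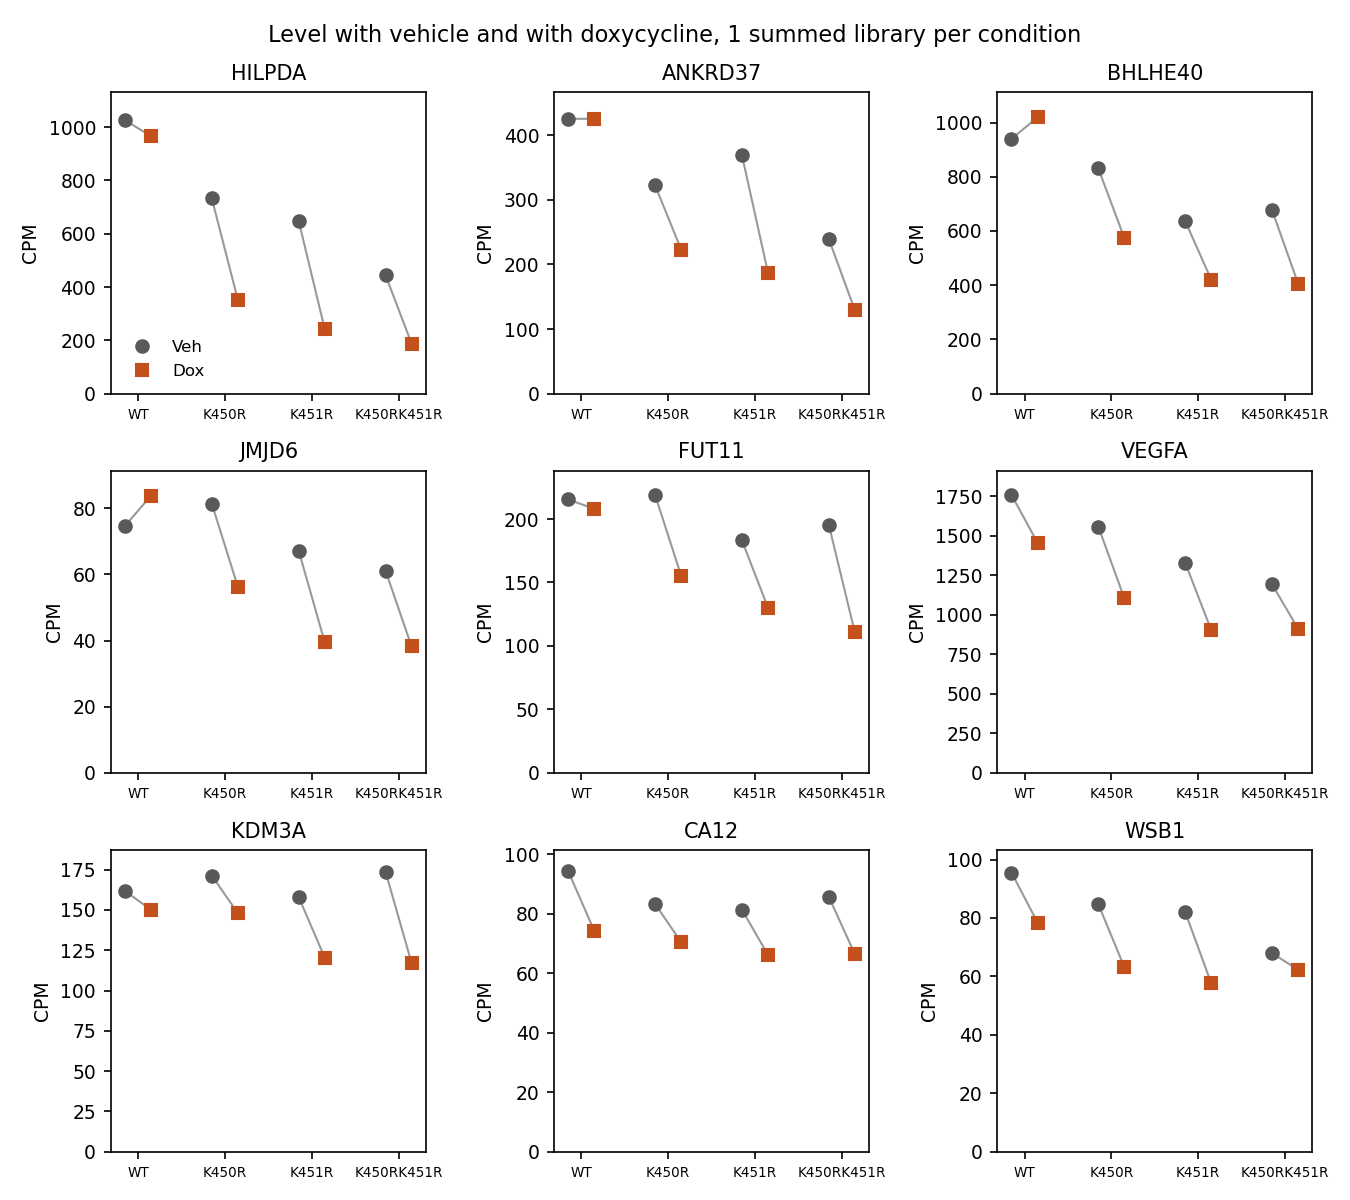
Level in CPM (y axis, from 0) of 9 members with vehicle (circles) and doxycycline (squares) in each stable line (x axis), 1 summed library per condition and so without error bars. HILPDA, ANKRD37, BHLHE40, JMJD6 and FUT11 drop in the 3 mutant lines and stay near the Veh level in WT. VEGFA, CA12, KDM3A and WSB1 are lower with Dox in all 4 lines.

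The other 6 calls were smaller. CA12 changed by -0.30 (edgeR adjusted p = 0.0140) and the E3 ligase adaptor WSB1 by -0.35 (adjusted p = 0.00816). Both were also lower with Dox in WT, CA12 from 94.4 to 74.3 CPM and WSB1 from 95.5 to 78.4 CPM. ERO1L changed by -0.27 (adjusted p = 0.0221), which came from K451R and K450RK451R at -0.39 and -0.52, since K450R was at 0.11. P4HA1 (-0.24), PLOD1 (-0.17) and NDRG1 (-0.16) had adjusted p-values of 0.00614, 0.0456 and 0.0478. These 6 lost the call under some alternatives, with an adjusted p of up to 0.119 for CA12, 0.196 for WSB1, 0.618 for ERO1L, 0.211 for P4HA1, 0.481 for PLOD1 and 0.514 for NDRG1. Without the K451R line, 8 members were called, and without the K450RK451R line also 8.

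By role, none of the 6 genes of the HIF subunits and the sensing loop passed the test over the mutant lines. HIF1A had a log2 change of 0.11 (edgeR adjusted p = 0.477), EPAS1 of 0.17 (0.734), VHL of -0.01 (0.963), EGLN1 of -0.15 (0.288), EGLN3 of 0.07 (0.691) and CITED2 of 0.19 (0.217). None of the 5 mitochondrial genes passed either, with changes from -0.14 for FAM162A to 0.10 for AK4. CA9 was at -0.26 with a wide error (SE 0.161, edgeR adjusted p = 0.432). The calls were 1 of 2 secreted factors, 1 of 2 carbonic anhydrases, 2 of 4 collagen-modifying enzymes, 1 of 2 storage genes, 1 of 3 transcription factors and 5 of 9 other targets. MIF, the macrophage migration inhibitory factor, was at 0.03 (adjusted p = 0.873), P4HA2 and PLOD2 were at 0.04 and 0.06, RORA and PNRC1 at -0.02 and 0.04, and TMEM45A, KLHL24, ANKZF1 and RAB20 at 0.12, -0.05, -0.13 and -0.29. INSIG2 missed the threshold at -0.36 (edgeR adjusted p = 0.0520), and its lines differed in sign, with 0.23 in K450R and -0.64 and -0.62 in the others. It was called lower with DESeq2 size factors in edgeR (adjusted p = 0.0454), with limma-voom (0.0453) and without the K450R line (-0.63, adjusted p = 4.52e-08), and was at 0.0583 to 0.682 in the other alternatives.

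Within single lines, the members past 1.5-fold were all lower with Dox, as a description with 1 sample per condition. In WT this was CA9 alone (log2 ratio -0.64, 95% exact binomial interval -1.03 to -0.26, for counting error only), against 6.45% of all genes, and in K450R it was HILPDA alone (-1.06, -1.12 to -0.996), against 5.96%. In K451R it was 5 of 36, HILPDA (-1.42, -1.48 to -1.35), ANKRD37 (-0.98, -1.06 to -0.90), JMJD6, INSIG2 and BHLHE40, against 5.56% of all genes. In K450RK451R it was 6 of 36, HILPDA (-1.24, -1.31 to -1.17), ANKRD37, FUT11, BHLHE40, JMJD6 and INSIG2, against 5.57%. Low-count genes make up most of these shares of all genes. Among the 9145 deeper genes (mean count 100 or more), which include 35 of the 36 members, the shares past 1.5-fold lower were 1.30%, 1.13%, 1.55% and 1.36% in the order WT, K450R, K451R and K450RK451R, beside 1, 1, 5 and 6 members. A single member past the limit, as in WT and K450R, is too few to set against either share. The median log2 ratio of the members was -0.014 in WT, -0.033 in K450R, -0.136 in K451R and -0.218 in K450RK451R. The intervals lay wholly below 0 for 10, 14, 20 and 23 members in that order of lines, and wholly above 0 for 9, 6, 3 and 3. Among the deeper genes, the intervals lay below 0 for 12.5%, 16.1%, 18.2% and 22.2% and above 0 for 13.5%, 15.0%, 14.5% and 17.7%. In WT the members exceeded those shares in both directions. Such an interval narrows as counts rise, and the members were not matched to the deeper genes in count. The shares are therefore not like for like.

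A larger share of the members than of all genes was lower in every mutant line. Of the 36 members, 18 were lower with Dox in all 3 mutant lines and 4 higher in all 3, while 18.1% of all genes tested were lower and 19.2% higher in all 3. Counting WT too, 11 members were lower in all 4 lines, beside 10.1% of all genes. Across the 36 members the log2 ratios correlated at a Pearson r of 0.757 between K450R and K451R, 0.694 between K450R and K450RK451R and 0.877 between K451R and K450RK451R. With WT they correlated at 0.309, 0.282 and 0.193 in the order K450R, K451R and K450RK451R. By rank (Spearman rho) the values were 0.648, 0.572 and 0.810 for the mutant pairs in the same order, and 0.268, 0.351 and 0.164 with WT. These points are genes that share their libraries, not replicates.

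**Figure D3:**
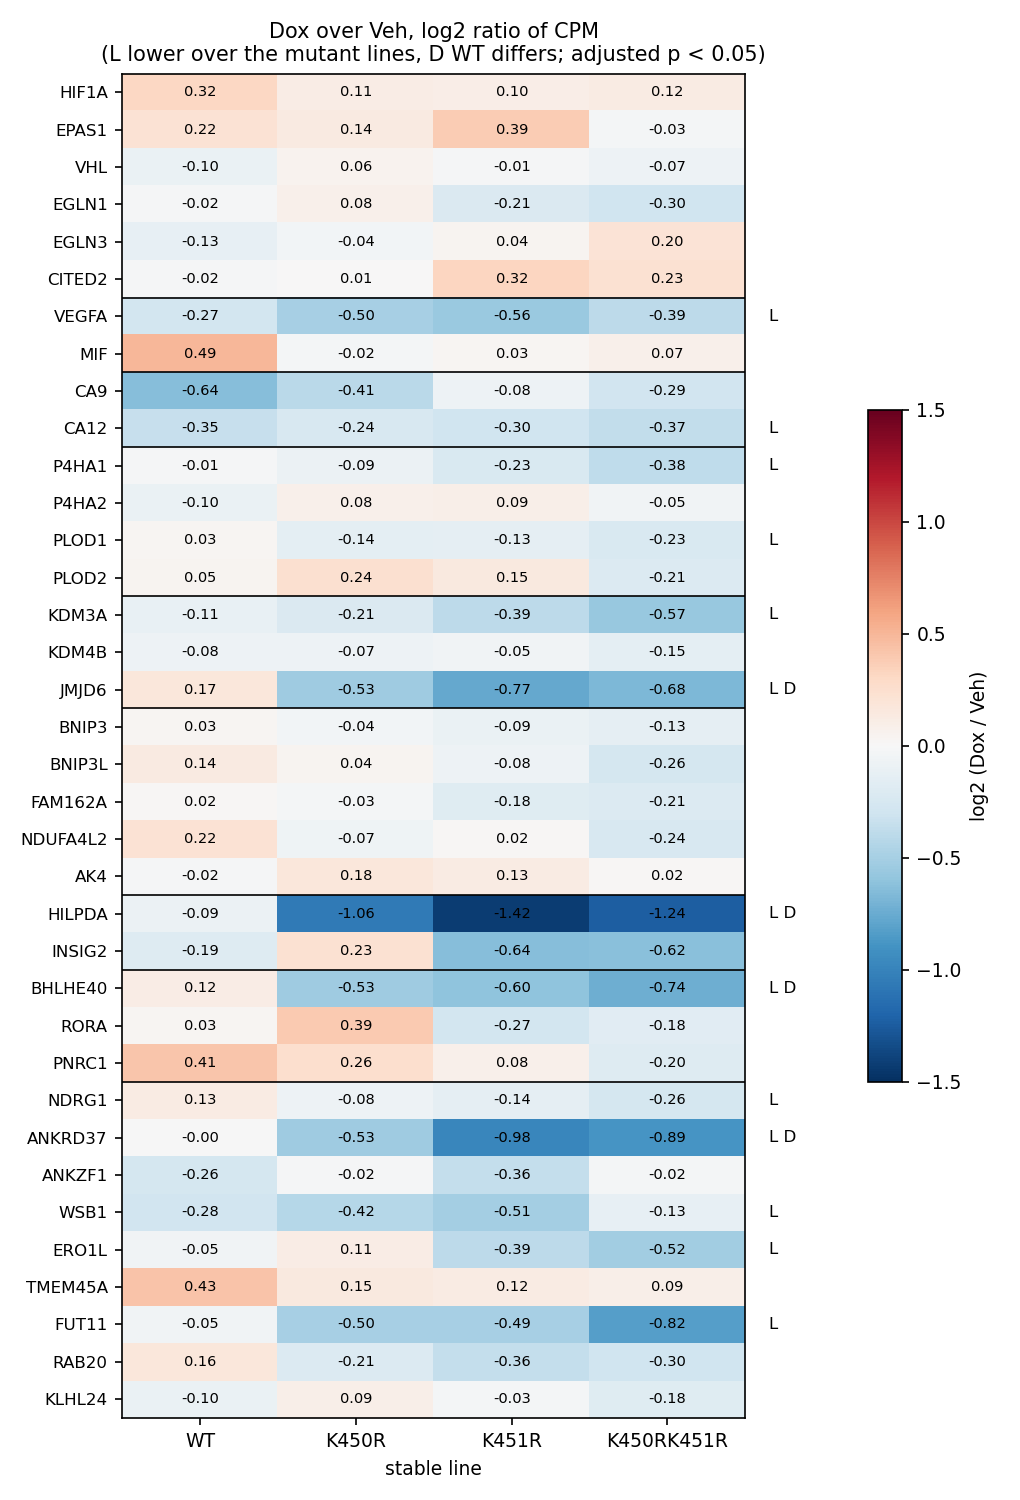
Log2 ratio of CPM with doxycycline over vehicle (colour and printed value) for 36 members (rows, grouped by role) in the 4 stable lines (columns), 1 summed library per condition. L marks the 13 members lower over the 3 mutant lines and D the 4 whose effect in WT differed from the mutant lines, both at an adjusted p under 0.05, and the darkest row is HILPDA.

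Whether WT and mutant induction differed was tested on the difference of their Dox effects, which assumes that the 1 WT line varies like the mutant lines. The difference passed the threshold for 4 of 36 members, all with a higher Dox effect in WT, against 0.163% of the 14105 genes. For HILPDA it was 1.15 on the log2 scale (SE 0.114, edgeR adjusted p = 8.25e-08), the smallest p of all genes. For JMJD6 it was 0.83 (SE 0.159, adjusted p = 0.00823), for ANKRD37 0.80 (SE 0.129, adjusted p = 0.000858) and for BHLHE40 0.74 (SE 0.105, adjusted p = 0.000106). HILPDA and BHLHE40 held in all 9 alternatives, ANKRD37 lost the call with DESeq2 (adjusted p = 0.0800), and JMJD6 lost it without a filter on low counts (adjusted p = 0.0804) and had no adjusted p from DESeq2. Without the K450R line, 8 members were called.

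FUT11, at 0.55 (SE 0.132, edgeR adjusted p = 0.0855), and MIF, at 0.47 (SE 0.114, adjusted p = 0.0901), missed the threshold. MIF was at 257 CPM with Veh and 362 with Dox in WT, and at 298 and 293, 256 and 261, and 274 and 289 CPM in K450R, K451R and K450RK451R. For VEGFA the difference was 0.21 (SE 0.098, adjusted p = 0.678) and for CA12 it was -0.04 (SE 0.149, adjusted p = 0.977). MIF gained the call with DESeq2 (adjusted p = 0.0331), with limma-voom (0.0231) and without the K450R (0.0176) or the K450RK451R line (0.0497), and was at 0.0745 to 0.413 in the other alternatives. FUT11 gained it with limma-voom (0.0261) and without the K450R (0.000393) or the K451R line (0.0160), had no adjusted p from DESeq2, and otherwise was at 0.0686 to 0.444. Among the other gene lists, the difference passed for the glucose transporter SLC2A1 (0.65) and the glycolytic regulator PFKFB3 (0.82), 2 of 20 glycolytic genes, and for the mTOR inhibitor DDIT4 (0.44), 1 of 17 other hypoxia-induced genes. It passed for none of 12 HIF machinery genes and none of 10 ATF4 targets.

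Taking all 4 lines as replicates of one Dox effect, 9 of 36 members were lower, against 1.5% of all genes. They were HILPDA (-0.94), ANKRD37 (-0.59), FUT11 (-0.46), BHLHE40 (-0.44), JMJD6 (-0.43), VEGFA (-0.43), WSB1 (-0.33), KDM3A (-0.32) and CA12 (-0.31). DESeq2 called 4 of the members in this design, VEGFA, CA12, KDM3A and WSB1, and so not the 5 with the largest changes. Leaving out the K450R line lost BHLHE40, JMJD6 and WSB1, leaving out K451R lost JMJD6 and WSB1, and leaving out K450RK451R lost KDM3A and JMJD6. VEGFA held in all 10 alternatives, and its log2 ratio ran from -0.27 in WT to -0.56 in K451R.

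Other hypoxia-related lists also held genes that were lower over the mutant lines. Of 20 glycolytic genes 9 were lower and none higher, led by PFKFB3 (-0.79) and SLC2A1 (-0.55). Of 17 other hypoxia-induced genes 4 were lower, led by the chemokine receptor CXCR4 (-0.94) and DDIT4 (-0.39), and none higher. None of 12 HIF machinery genes passed, with EGLN2 at -0.72 (edgeR adjusted p = 0.0739) and RBX1 at 0.23 (adjusted p = 0.402). Of 10 ATF4 targets PSAT1 (0.35) was higher and ATF3 (-0.44) and DDIT3 (-0.38) were lower. Of the 9 luminal markers 3 were higher, among them TMPRSS2 (0.26), and 2 lower, the keratins KRT8 (-0.28) and KRT18 (-0.22), and the part of these markers in the members' changes was not tested.

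Silencing of EHMT1 gave no call among the members. Of 35 members tested, 0 passed an adjusted p under 0.05 (edgeR quasi-likelihood), against 19 of 14532 genes, or 0.131%. At an unadjusted p under 0.05, 3 members passed with edgeR, 0 with DESeq2 and 2 with limma-voom, where edgeR gave 1392 genes, 9.58% of all. The 3 were AK4 (log2 fold change -0.26, edgeR adjusted p = 0.433), NDUFA4L2 (-0.27, adjusted p = 0.508) and P4HA2 (0.33, adjusted p = 0.426). Of the 35, 22 had a negative and 13 a positive log2 fold change, with a median of -0.029 against -0.0021 for all genes. With 2 samples per group, the standard errors of single members ran from 0.087 for PLOD1 to 0.618 for TMEM45A.

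Members called over the mutant lines had the following levels after silencing. HILPDA was at 25.9 and 27.7 CPM in siNTC and at 25.9 and 23.6 CPM in siEHMT1 (log2 fold change -0.11, SE 0.138, edgeR adjusted p = 0.851). ANKRD37 was at 5.38 and 5.53 CPM in siNTC and at 8.87 and 6.71 CPM in siEHMT1 (0.51, SE 0.252, adjusted p = 0.537). The groups of ANKRD37 did not overlap, but its counts are low and the change did not pass the test.

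BHLHE40 was at 34.6 CPM in both siNTC samples and at 30.3 and 30.2 CPM in siEHMT1 (-0.19, edgeR adjusted p = 0.644). VEGFA was at 104 and 117 CPM in siNTC and at 97.6 and 131 CPM in siEHMT1 (0.05, adjusted p = 0.940). JMJD6 was at 38.0 and 32.6 CPM against 36.4 and 34.8 CPM (0.01, adjusted p = 0.991). The siEHMT1 samples of VEGFA lay on both sides of the siNTC samples, and those of JMJD6 lay between them.

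KDM3A was at 24.8 and 29.2 CPM in siNTC and at 16.7 and 26.6 CPM in siEHMT1 (-0.31, SE 0.179, edgeR adjusted p = 0.605). It was called when siEHMT1 replicate 2 was left out (-0.69, adjusted p = 0.0486), and NDUFA4L2 was called when siNTC replicate 1 was left out (-0.49, adjusted p = 0.0390). In both cases the lone sample is assumed to vary like the other group. INSIG2 had the lowest log2 fold change of the members, -0.42, with 6.23 and 14.03 CPM in siNTC and 7.20 and 7.35 CPM in siEHMT1, where 1 siNTC sample stood above the other 3. HIF1A, at 153 and 163 CPM against 146 and 144 CPM, changed by -0.12 on the log2 scale without passing the test (adjusted p = 0.693).

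**Figure D4:**
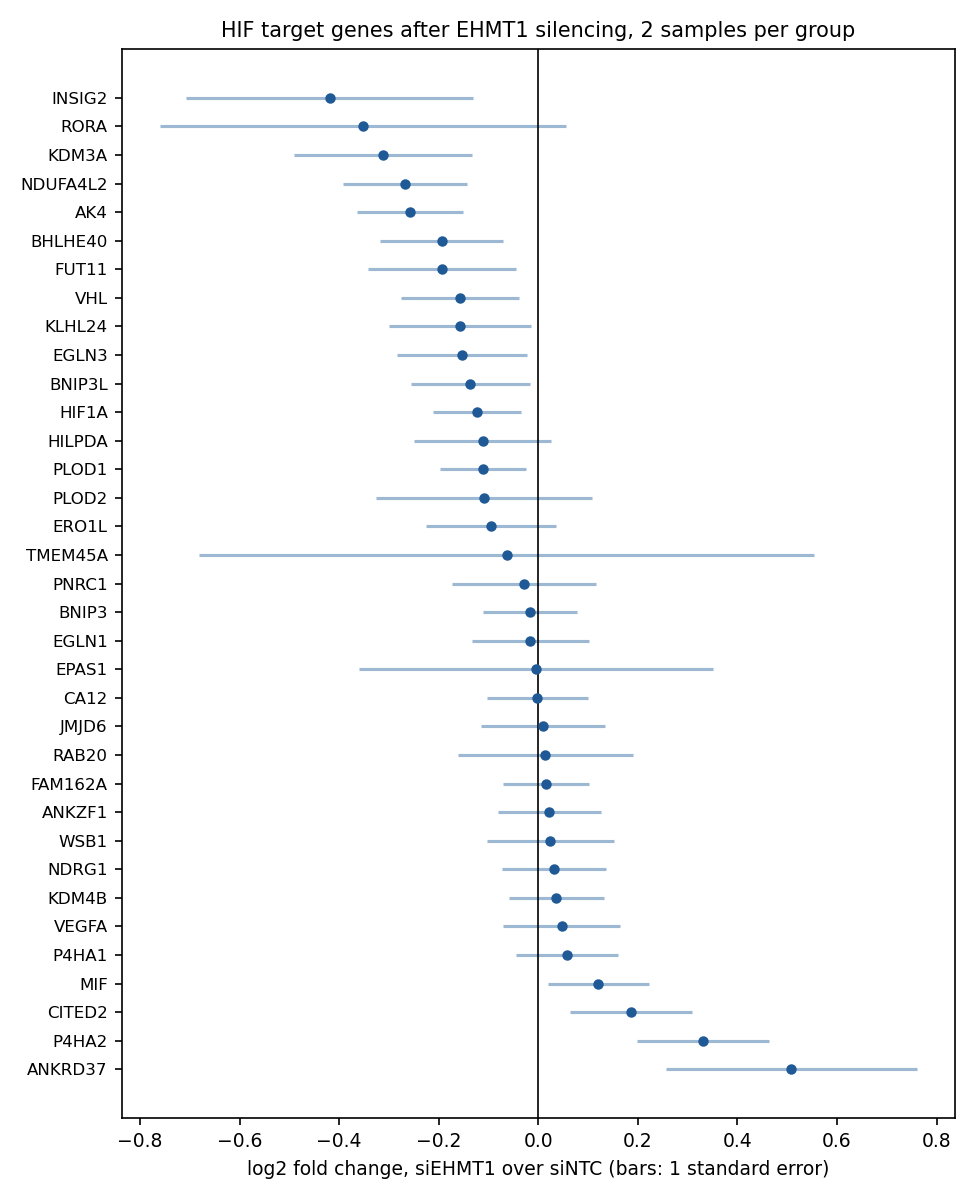
Log2 fold change of siEHMT1 over siNTC (x axis) for 35 members (rows, ordered by value) with bars of 1 standard error, 2 samples per group. The members run from -0.42 for INSIG2 to 0.51 for ANKRD37, 22 of the 35 are below 0, and none passed the test.

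In the other lists, silencing gave no call among 12 HIF machinery genes, 20 glycolytic genes, 17 other hypoxia-induced genes and 10 ATF4 targets with edgeR, where 0, 4, 5 and 1 genes had an unadjusted p under 0.05. The lowest glycolytic gene was ENO2 at -0.49 (edgeR adjusted p = 0.201), and 15 of the 20 were negative. CA9 had counts of 5 and 1 in siNTC and of 6 and 3 in siEHMT1, too few for the filter. ADM, ANGPTL4, LOXL2 and PPP1R3C had at most 7 counts in any siRNA sample and were likewise not tested.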

How the data were processed

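RNA-seq was performed on 4 siRNA samples and 16 stable-line columns of LNCaP cells. The authors deposited raw read counts per Ensembl gene in 2 tables, one per experiment, without normalization. Per the paper, stranded total RNA libraries were sequenced as 51-nt single-end reads and mapped to hg19. The submitters' processing notes name FastQC 0.11.9, STAR 2.7.2 and featureCounts 1.6.4. The annotation release and the strand setting of the counting are not given in the sources used here.

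Columns were matched to samples by name. Columns of a stable-line condition agreed within counting noise and were summed, giving 8 libraries. After TMM scaling and filterByExpr, the counts were tested with the quasi-likelihood method of edgeR 4.0.16 in R 4.3.3, with an adjusted p under 0.05 (Benjamini-Hochberg over all genes tested). Line was a term in the stable-line fits, with a Dox term for the mutant lines and one for WT minus mutants, and a second fit had 1 Dox term for the 4 lines. The SE of a log2 fold change was derived from its F statistic. Within a line, a log2 ratio of CPM past 1.5-fold was counted, with a 95% exact conditional binomial interval. Reads are not independent molecules, so intervals cover counting error only. The control levels were scaled together, so their CPM differ slightly from those of the fits. Alternatives used DESeq2 1.42.0, limma 3.58.1 (voom), other scalings and filters, and samples or lines left out, with library size alone added after seeing the data. The fits were tested on simulated data.

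All 40 members were named, and genes of the other lists by count with up to 4 named per list and comparison. The genes named from those lists were not always the ones with the largest changes. The members and lists were chosen with earlier results of these data known. Exon lengths and overlaps came from GENCODE 44 on GRCh37, where 55538 of the 57773 identifiers were found, and promoters from RefSeq (GRCh38.p14), using the first window where a gene had several.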

Additional observations from a re-analysis of the deposited data

Results flagged for a closer look

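The Dox effect in WT differed from that in the mutant lines by a test of the difference itself (edgeR quasi-likelihood, adjusted over all genes) for 4 members. The difference, WT minus mutants, was 1.15 on the log2 scale for HILPDA, 0.83 for JMJD6, 0.80 for ANKRD37 and 0.74 for BHLHE40. In WT the log2 ratio of Dox over Veh was -0.09 for HILPDA, 0.17 for JMJD6, -0.00 for ANKRD37 and 0.12 for BHLHE40. In the mutant lines the log2 ratios of these 4 genes ran from -1.42 for HILPDA in K451R to -0.53 for ANKRD37 in K450R. EHMT1 itself rose by 3.38 in WT and by 3.32, 3.34 and 2.90 in K450R, K451R and K450RK451R, and its difference did not pass the test (0.20, edgeR adjusted p = 0.797). WT is a single line, so its genotype and the line cannot be told apart.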

How the results depend on the processing

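In the siRNA comparison, all genes called were 12 without a filter on low counts, 127 with the replicate number as a block and 38 to 111 with 1 sample left out, against 19, and members called were 0 to 1 with 1 sample left out. Same-numbered siRNA samples did not deviate together (Pearson r = -0.00518, Spearman rho = 0.0303 over genes). With 2 samples per group this does not decide whether the numbers pair them. The block called 0 members. Over the mutant lines, members called were 8 without the filter, 8 with DESeq2, 8 with library size alone and 8 to 16 with 1 line left out, against 13. For WT minus mutants they were 3 without the filter, 3 with DESeq2, 6 with limma-voom and 5 to 8 with 1 line left out, against 4, while all genes higher rose from 22 to between 27 and 83 with 1 line left out, and for the 4 lines 4 with DESeq2 and 7 to 13 with 1 line left out, against 9. Within lines, counting members with any count gave 4 lower and 1 higher in WT and 1 higher in each of K450R and K450RK451R. A 2-fold limit left 0 lower in WT and 1 in each of K451R and K450RK451R, and library size alone left 3 in K451R. With 1 column per condition the lower members were 0 to 1 in WT, 1 to 2 in K450R and 5 to 6 in the other lines, and a block on the column number left the counts at 1, 1, 5 and 6. Between controls, HIF1A passed as lower (1 member) with DESeq2 size factors and with library size alone. The cause of these shifts was not tested. Of the values for single genes, none that passed the test changed sign, 78 that passed it in neither setting did, 44 lost and 26 gained a call, 24 moved and 1304 did neither. Depth limits CA9, ADM, ANGPTL4, LOXL2 and PPP1R3C most.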

Other observations

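A few members were higher with Dox in WT. PNRC1, a nuclear receptor coregulator, was at 75.6 CPM with Veh and 101 CPM with Dox (log2 ratio 0.41), TMEM45A at 15.2 and 20.4 CPM (0.43), and HIF1A at 65.6 and 81.6 CPM (0.32). Their differences from the mutant lines did not pass the test, with edgeR adjusted p-values of 0.630 for PNRC1, 0.865 for TMEM45A and 0.837 for HIF1A. ADM had 24 counts with Veh and 8 with Dox in WT, and its counts in the mutant lines were 9, 4 and 1 with Veh and 9, 7 and 3 with Dox. ANGPTL4 had 13 counts with Veh and 4 with Dox in WT, and 6, 17 and 8 with Veh and 5, 15 and 1 with Dox in the mutant lines, in the order K450R, K451R and K450RK451R.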
